A study of Homo sapiens with 18 samples.

Results

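The genes described here are 10 genes of secretory epithelium in PC9, a human non-small cell lung cancer cell line that carries an activating EGFR mutation: the mucins MUC1, MUC16 and MUC20, the carcinoembryonic antigen-related adhesion molecules CEACAM1, CEACAM5 and CEACAM6, and the secretory proteins AGR2, LCN2, SLPI and CP. They are 10 of 30727 gene identifiers in the deposited gene table, and all 10 were among the 17641 genes that passed the filter on low counts. They were chosen by gene family and secretory role with their values in all 6 groups in view. Their levels and changes below are therefore a description, and no p-value is printed for them. Their calls rest on adjusted p-values from these same data and serve as labels, not as tests of the chosen genes. RNA was sequenced from polyA-selected libraries in 6 groups of 3. Parental cells received the solvent DMSO (parental_DMSO), 1 µM of the EGFR inhibitor erlotinib for 24 hours (erlotinib_24h), 50 µM of the DNA-crosslinking drug carboplatin for 72 hours (carboplatin_72h), or 50 nM of trichostatin A, an inhibitor of histone deacetylases called TSA here, for 5 hours (parental_TSA). Drug-tolerant persisters (DTP) are the cells that were left after 8 days in 1 µM erlotinib, and DTP_TSA cells were persisters that also received 50 nM TSA for 5 hours. The treatment text of the persister samples also mentions cells sorted for ALDH activity, which no sample title names. Nothing states that the 3 replicates of a group came from separate cultures, so the spread between them may be technical.

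Mucins of the transmembrane kind are long glycoproteins whose extracellular part is densely coated with O-linked sugars and forms the outermost barrier of airway epithelium. CEACAMs are immunoglobulin-type adhesion molecules of the epithelial surface. CEACAM5 and CEACAM6 are held by a lipid anchor, CEACAM1 crosses the membrane and carries an inhibitory cytoplasmic tail, and MUC1, MUC16 (CA125) and CEACAM5 (CEA) are tumour markers in the clinic. AGR2 is a disulfide isomerase of the endoplasmic reticulum needed for mucin folding, LCN2 binds bacterial siderophores that carry iron, SLPI inhibits neutrophil elastase, and CP (ceruloplasmin) is a copper-carrying ferroxidase.

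Libraries held 32139343 to 128293531 reads assigned to genes. Levels are given as CPM, gene reads relative to library sizes scaled by TMM, and a change is the log2 ratio of 2 groups with its standard error (SE) from 1 edgeR quasi-likelihood fit of all 18 libraries. A gene is called higher or lower where its Benjamini-Hochberg adjusted p over all genes tested was under 0.05. CPM values do not account for gene length, so levels are compared between groups and not between genes. The 8 airway epithelial markers summed to 5369 to 5548 CPM in parental_DMSO and 9166 to 9382 CPM at 24 hours of erlotinib. In DTP the sum was 5735 to 5855 CPM and after carboplatin 4446 to 5058 CPM. With TSA it was 4859 to 6215 CPM in parental_TSA and 4542 to 4734 CPM in DTP_TSA. At 24 hours 7 of the 8 were called higher, where 36.6% of all genes were, and EPCAM was called lower (-1.16, SE 0.08). KRT8, KRT19 and CLDN4 rose most there, by 1.2, 1.7 and 2.3, and CDH1 and KRT7 by 0.72 and 0.35. LCN2 and SLPI are also made by neutrophils. The sum of 10 neutrophil and leukocyte markers was 11.3 to 11.6 CPM in parental_DMSO, 19.8 to 21.8 CPM at 24 hours of erlotinib, 19.6 to 20.1 CPM in DTP, 7.49 to 8.50 CPM after carboplatin, 5.24 to 5.76 CPM in parental_TSA and 4.68 to 8.17 CPM in DTP_TSA. Of the 5 that were tested, 3 were higher and 1 was lower at 24 hours and likewise in DTP. Over all genes 36.6% were higher and 32.7% lower at 24 hours, and 31.0% and 27.8% in DTP. ITGAM, the most abundant of these markers, rose by 1.80 (SE 0.18) at 24 hours and 1.69 (SE 0.18) in DTP. The defining genes PTPRC and ELANE reached at most 0.0986 and 0.0108 CPM, and MPO was at 0 in every library. The alveolar genes SFTPC and SFTPB reached at most 0.0538 and 0.148 CPM. All 7 tested alveolar genes were called higher at 24 hours, where 36.6% of all genes were. Among them SLC34A2, SFTPA2, SFTPD and NAPSA reached at most 0.192, 0.202, 0.778 and 0.856 CPM. Genes with so few reads can pass the filter through the group where they are high. The sum of 6 endothelial markers was highest at 24 hours of erlotinib, at 112.7 to 117.9 CPM against 17.5 to 18.4 CPM in parental_DMSO, and PECAM1 (at most 71.6 CPM) and CDH5 (at most 44.3 CPM) made up most of it, while CLDN5 stayed at or under 0.0981 CPM. The sum of 8 fibroblast markers was 4.70 to 4.78 CPM in parental_DMSO and 13.2 to 32.2 CPM in the other groups. COL1A1 alone (4.62 to 32.2 CPM) made up nearly all of it. LUM, PDGFRB and DCN reached at most 0.801, 0.388 and 0.331 CPM, and COL1A2, COL3A1, PDGFRA and THY1 at most 0.0413, 0.0534, 0.110 and 0.0265 CPM. The part of these markers in the changes below was not tested. Library DTP_TSA a stood apart: its spike-in RNA gave 99.9 reads per 100 gene reads against 0.321 to 0.786 in the others, and its correlation with its group mates across genes was 0.977 against 0.999 between those mates. Library parental_TSA a also correlated less with its mates, at 0.992 and 0.986. The main TSA results of the 10 genes are therefore given with and without both libraries.

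The stretches directly upstream of the annotated start are shown for MUC1, CEACAM1, CEACAM5, CEACAM6 and LCN2. They let CEACAM5 and CEACAM6 be compared base by base and show which short motifs lie next to genes whose levels differed between groups. Each is 120 bases long, 5′ to 3′ on the gene's own strand, from RefSeq on GRCh38.p14. In CEACAM5 (chr19:41708506-41708625, plus strand) and CEACAM6 (chr19:41755410-41755529, plus strand) the capitals mark bases that differ, or have no partner, when these stretches are aligned.
CEACAM5: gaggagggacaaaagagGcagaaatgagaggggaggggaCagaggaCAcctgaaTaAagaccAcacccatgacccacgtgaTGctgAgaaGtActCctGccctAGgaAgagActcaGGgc
CEACAM6: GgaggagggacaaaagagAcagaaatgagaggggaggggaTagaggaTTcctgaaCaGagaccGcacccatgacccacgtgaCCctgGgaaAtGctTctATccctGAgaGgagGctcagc
CEACAM1: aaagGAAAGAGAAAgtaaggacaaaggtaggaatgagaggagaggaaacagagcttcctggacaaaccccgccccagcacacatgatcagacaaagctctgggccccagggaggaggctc
MUC1: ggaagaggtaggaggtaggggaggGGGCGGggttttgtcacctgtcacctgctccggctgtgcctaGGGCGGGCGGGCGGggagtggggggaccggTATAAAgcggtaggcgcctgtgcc
LCN2: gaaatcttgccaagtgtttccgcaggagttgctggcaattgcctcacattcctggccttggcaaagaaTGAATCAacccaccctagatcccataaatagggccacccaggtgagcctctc
In CEACAM1 (chr19:42528482-42528601, minus strand) the capitals mark a match to the core of the interferon-stimulated response element, and in MUC1 (chr1:155192916-155193035, minus strand) a TATA box and 4 GC boxes. In LCN2 (chr9:128149333-128149452, plus strand) they mark TGAATCA, a match to a loose AP-1 search pattern that takes any middle base. Other matches in these stretches stay in lower case: a GC box and an E-box (CANNTG) in CEACAM1, and E-boxes in MUC1 and LCN2.

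CEACAM5 and CEACAM6 are neighbours on chromosome 19 in the RefSeq gene order, and 100 of 122 alignment columns of their upstream stretches were identical (82.0%). The CEACAM1 stretch was identical to that of CEACAM5 in 59.2% and to that of CEACAM6 in 61.2% of columns. Upstream sequences were matched for 7 members: MUC1, MUC16, CEACAM1, CEACAM5, CEACAM6, AGR2 and LCN2. In the 250 bases before the start, 8 motifs were searched on both strands, and 35116 promoters of the same table gave the background. A TATA box (TATAAA) was found for MUC1 and CEACAM6 and in 10.7% of all promoters. The core of the interferon-stimulated response element (TTTC, 2 bases of any kind, TTTC) was found for CEACAM1 and in 3.02% of all promoters. The loose AP-1 search pattern TGANTCA, which takes any middle base, was matched for LCN2 (as TGAATCA) and in 6.57% of all promoters. The GC box GGGCGG was found for MUC1, MUC16, CEACAM1 and CEACAM6 and in 42.6% of all promoters, and its 3 copies nearest the MUC1 start overlap one another. The E-box CANNTG was found for all 7 matched members and in 61.8% of all promoters. The STAT motif TTCNNNGAA, the forkhead motif TGTTTAC and the CRE half-site TGACG were found for 0 of the 7, and in 6.57%, 2.98% and 21.2% of all promoters. A match is a stretch of letters and not a measured binding site.

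MUC1, a membrane mucin whose cytoplasmic tail takes part in growth factor signalling, was measured at 1.30, 1.06 and 1.60 CPM in parental_DMSO. After 24 hours of erlotinib its 3 libraries were at 257, 259 and 245 CPM. In DTP they were at 24.2, 23.1 and 22.5 CPM. The order of the 6 groups was erlotinib_24h, DTP, DTP_TSA, carboplatin_72h, parental_TSA and parental_DMSO, with no overlap between neighbours and a ratio of 193 between the highest and lowest group means. The log2 change was 7.59 (SE 0.13) at 24 hours and 4.14 (SE 0.12) in DTP, and it was called higher in both.

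MUC16, the largest of the membrane mucins and the ligand of mesothelin, was at 21.2, 23.1 and 24.2 CPM in parental_DMSO. At 24 hours of erlotinib it was at 817, 878 and 885 CPM, in DTP at 73.4, 77.5 and 68.2 CPM and after carboplatin at 71.6, 75.0 and 72.9 CPM. The carboplatin and DTP libraries overlapped, and no other neighbours in the order of groups did. The change was 5.24 (SE 0.17) at 24 hours and 1.68 in both DTP and carboplatin_72h (SE 0.14 each), all called higher. parental_TSA was the lowest group, with 9.22, 12.8 and 17.6 CPM in its replicates a, b and c.

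MUC20, a membrane mucin reported to bind the receptor MET, was at 5.44, 5.36 and 5.60 CPM in parental_DMSO. At 24 hours it was at 383, 395 and 382 CPM, and in DTP at 40.4, 42.9 and 41.5 CPM. The order of groups was that of MUC1, apart from the overlap of DTP with DTP_TSA (42.5, 36.5 and 38.3 CPM). The change was 6.14 (SE 0.08) at 24 hours, 2.93 (SE 0.07) in DTP and 1.88 (SE 0.07) after carboplatin, all called higher. MUC20 shares much of its transcript with other annotated genes: 60.48% of the 30-base stretches of its GENCODE 29 transcripts also occur in another gene, chiefly the overlapping transcript MUC20-OT1 and the pseudogene MUC20P1. Its counts are uncertain for that reason. The same share was 0.55% for MUC1 and 0% for MUC16.

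CEACAM1, the transmembrane member of its family, was at 1.06, 1.10 and 1.21 CPM in parental_DMSO. It was at 0.468, 0.734 and 0.692 CPM at 24 hours of erlotinib, 3.33, 3.11 and 3.48 CPM in DTP, and 11.2, 10.4 and 10.0 CPM after carboplatin. It was lowest of all groups at 24 hours and highest after carboplatin, with a ratio of 16.7 between these means. The change was -0.83 (SE 0.19) at 24 hours, called lower, 1.56 (SE 0.18) in DTP and 3.23 (SE 0.18) after carboplatin, both called higher.

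CEACAM5 was at 11.4, 10.1 and 10.4 CPM in parental_DMSO and at 45.3, 41.2 and 41.6 CPM at 24 hours of erlotinib. In DTP its level was 0.357, 0.429 and 0.408 CPM, from 30.3 to 34.6 reads per library, and after carboplatin 1.56, 1.66 and 2.00 CPM. Thus the highest and the lowest group means, 24 hours and DTP, differed by a ratio of 107, and both groups had been given the same dose of erlotinib. The change was 2.00 (SE 0.13) at 24 hours, called higher, and -4.74 (SE 0.17) in DTP and -2.61 (SE 0.14) after carboplatin, both called lower.

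CEACAM6 was at 1148, 1174 and 1165 CPM in parental_DMSO, at 2008, 1959 and 1914 CPM at 24 hours of erlotinib and at 713 to 737 CPM after carboplatin. In DTP its libraries were at 156, 153 and 147 CPM. The order of groups was that of CEACAM5 except that DTP_TSA (129, 141 and 134 CPM) lay below DTP. The change was 0.75 (SE 0.06) at 24 hours, called higher, and -2.94 (SE 0.07) in DTP, called lower. After carboplatin it was -0.68 (SE 0.06), called lower with TMM scaling and -0.03, not called, when library sizes were set by the ERCC spike-in, which per the labels was added by cell number. This spike-in setting always also left out DTP_TSA a, whose omission alone left the change at -0.68. The same setting gave 0.39, not called, at 24 hours, against 0.75 with only that library left out. In all, 23.81% of the stretches of 30 bases in CEACAM5, 14.82% in CEACAM6 and 9.06% in CEACAM1 occur in another annotated gene, and for CEACAM5 chiefly in AC243967.1, so the counts of all 3 carry that uncertainty. CEACAM5 and CEACAM6 share 198 stretches of 30 bases, 5.91% of those of CEACAM5 and 6.55% of those of CEACAM6.

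AGR2 was at 4.24, 4.30 and 3.96 CPM in parental_DMSO and at 224, 213 and 212 CPM at 24 hours of erlotinib. In DTP it was at 3.52, 3.51 and 3.45 CPM. The DTP libraries lay below all parental_DMSO libraries, but the change of -0.25 (SE 0.12) was not called. It was called with the same value without parental_TSA a, without parental_TSA c and without replicate a of both TSA groups. It was also called, at -0.245, when only DTP and parental_DMSO were fitted. At 24 hours the change was 5.70 (SE 0.13), called higher, and after carboplatin, where the libraries were at 18.5, 18.9 and 18.5 CPM, it was 2.16 (SE 0.12), called higher.

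LCN2 was at 77.1, 74.0 and 78.1 CPM in parental_DMSO, 202, 206 and 207 CPM at 24 hours of erlotinib, 83.5, 88.0 and 87.1 CPM in DTP, and 357, 342 and 375 CPM after carboplatin. It was highest after carboplatin, and its range over the groups was small beside that of the mucins, with a ratio of 4.95. The change was 1.42 (SE 0.13) at 24 hours and 2.23 (SE 0.13) after carboplatin, both called higher, and 0.17 (SE 0.12) in DTP, not called. Without parental_TSA a, or without replicate a of both TSA groups, the value in DTP was the same and was called. It was also called, at 0.18, when only DTP and parental_DMSO were fitted.

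SLPI was at 115, 114 and 108 CPM in parental_DMSO, 207, 205 and 199.7 CPM at 24 hours of erlotinib, 81.6, 76.4 and 78.5 CPM in DTP and 259.8, 271 and 264 CPM after carboplatin. Like LCN2 it was highest after carboplatin and second at 24 hours, and unlike LCN2 its DTP libraries lay below those of parental_DMSO. The change was 0.86 (SE 0.12) at 24 hours and 1.24 (SE 0.12) after carboplatin, both called higher, and -0.51 (SE 0.12) in DTP, called lower.

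CP was at 42.4, 44.1 and 44.2 CPM at 24 hours of erlotinib, from 3439.7 to 3967.8 reads. In the other 15 libraries it was at 0 to 0.237 CPM, from 0 to 21.8 reads. No library outside erlotinib_24h came near those of that group, and the other 5 groups overlapped their neighbours in the order of levels. The change at 24 hours was 8.31 (SE 0.34), called higher, and in DTP it was -0.12 (SE 0.50), not called. Of its 30-base stretches, 7.45% occur in another annotated gene, and for AGR2, LCN2 and SLPI 0% do.

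**Figure D1:**
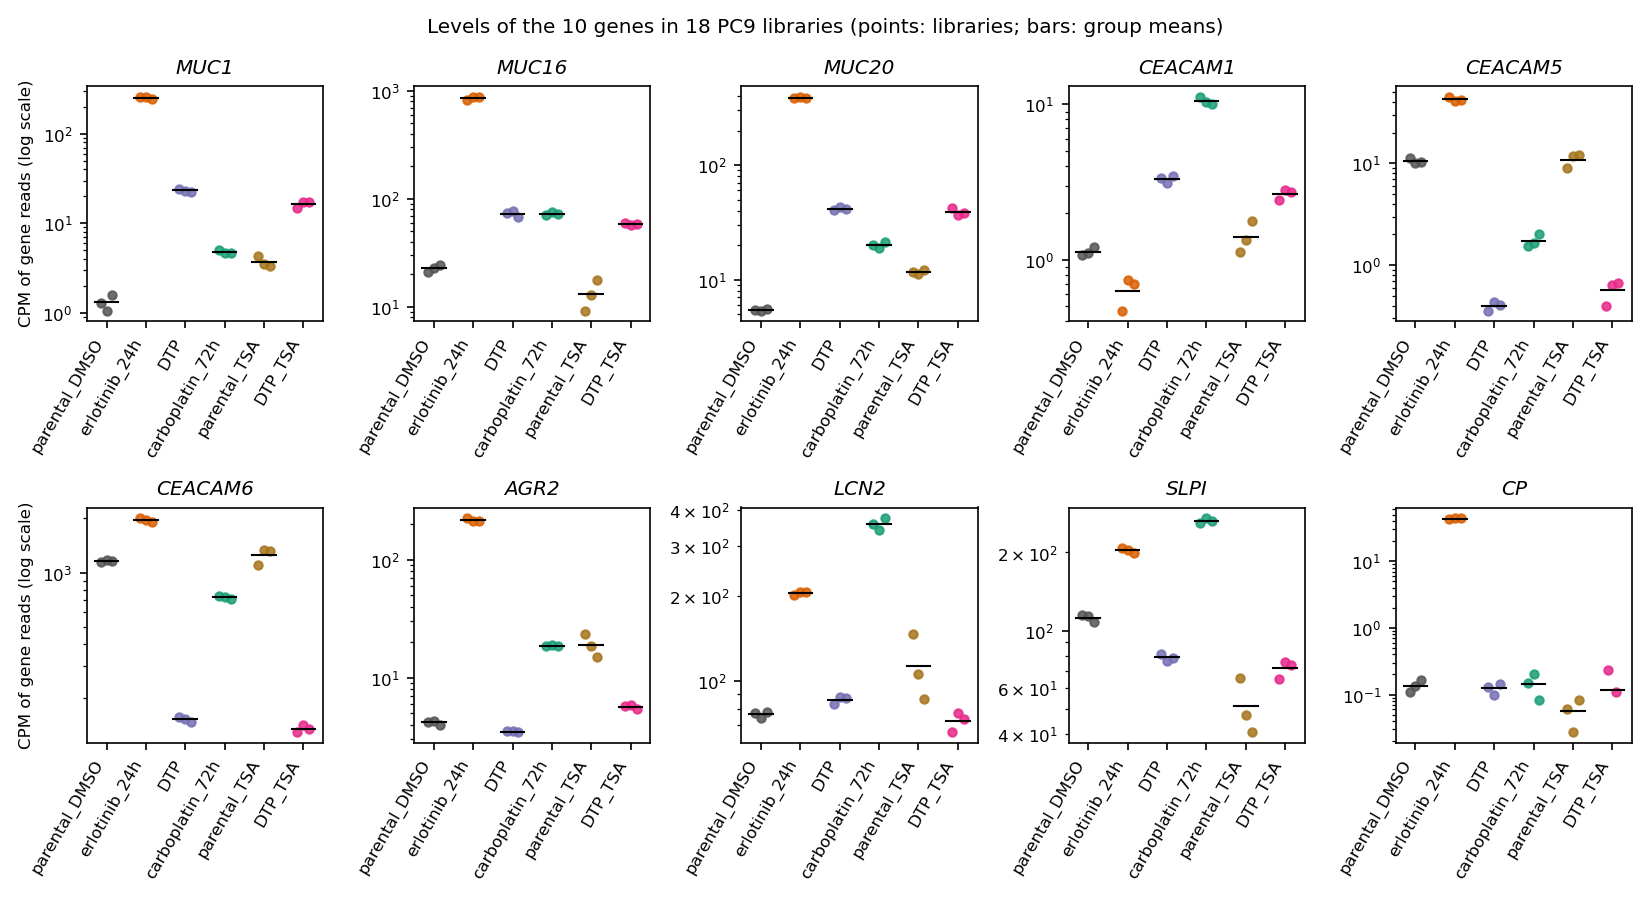
Level of each of the 10 genes in every library, in CPM on a log axis that differs between panels. Points are libraries and horizontal bars are group means of 3 libraries. One library, DTP_TSA a, had 0 reads of CP and has no point. The 3 libraries of erlotinib_24h are the highest for MUC1, MUC16, MUC20, CEACAM5, CEACAM6, AGR2 and CP, and those of carboplatin_72h for CEACAM1, LCN2 and SLPI.

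The question of the first comparison was what changed within 24 hours of EGFR inhibition. All 10 genes were called: 9 higher and CEACAM1 lower, where 36.6% of all genes tested were called higher and 32.7% lower. The median change of the 10 was 3.62, beside 0.11 over all genes tested. The 3 mucins rose by 5.24 to 7.59, and AGR2 and CP rose by 5.70 and 8.31. CEACAM5, LCN2, SLPI and CEACAM6 rose less, by 2.00, 1.42, 0.86 and 0.75. With spike-in scaling and DTP_TSA a left out, the median of all genes was -0.23, and 8 of the 10 were called higher and 1 lower, CEACAM6 being the one without a call. With only that library left out the median was 0.12, with 9 higher and 1 lower.

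In the persisters after 8 days of erlotinib, 4 genes were called higher than in parental_DMSO and 3 lower, where 31.0% of all genes were called higher and 27.8% lower. The higher genes were the 3 mucins and CEACAM1, and the lower genes were CEACAM5, CEACAM6 and SLPI. AGR2, LCN2 and CP were not called. When only DTP and parental_DMSO were fitted, AGR2 and LCN2 were called too, giving 5 higher and 4 lower, beside 6714 and 6296 of all genes. The median change of the 10 was 0.03, beside 0.06 over all genes.

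The difference between persisters and the 24 hour cells was also fitted directly. Here 9 genes were called lower in DTP and 1, CEACAM1, was called higher by 2.38 (SE 0.19), where 24.8% of all genes were called lower and 30.5% higher. The 3 mucins were lower by a similar amount, with changes of -3.45 (SE 0.11) for MUC1, -3.56 (SE 0.15) for MUC16 and -3.22 (SE 0.07) for MUC20. CEACAM5 was lower with a change of -6.74 (SE 0.17), CEACAM6 with -3.69 (SE 0.07) and AGR2 with -5.95 (SE 0.13). CP had the largest difference of the 10, -8.44 (SE 0.35), and LCN2 and SLPI the smallest, -1.25 and -1.37 (SE 0.13 and 0.12). Cells at 24 hours are a whole population and persisters are the survivors, so fewer cells of a kind and less RNA per cell cannot be told apart in these bulk libraries. The comparisons with parental_DMSO share its 3 libraries, and each is given with its own values.

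Carboplatin is a drug that does not target EGFR, and its comparison with parental_DMSO shows the 10 genes under another treatment. Here 7 genes were called higher and 2 lower, where 30.3% of all genes were called higher and 28.6% lower. CEACAM1 had the largest increase, 3.23 (SE 0.18), followed by LCN2, AGR2, MUC20, MUC1, MUC16 and SLPI with 2.23 to 1.24. CEACAM5 and CEACAM6 were the lower genes, and CP, with 0.147, 0.200 and 0.0841 CPM, was not called (0.09, SE 0.49). Spike-in scaling with DTP_TSA a left out gave a median of all genes of 0.72 in this comparison, against 0.06, and 10618 genes higher and 1213 lower, against 5340 and 5046. Leaving out that library alone gave a median of 0.07 and 6297 and 5642 genes. With the spike-in 7 of the 10 were called higher and 1, CEACAM5, lower.

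**Figure D2:**
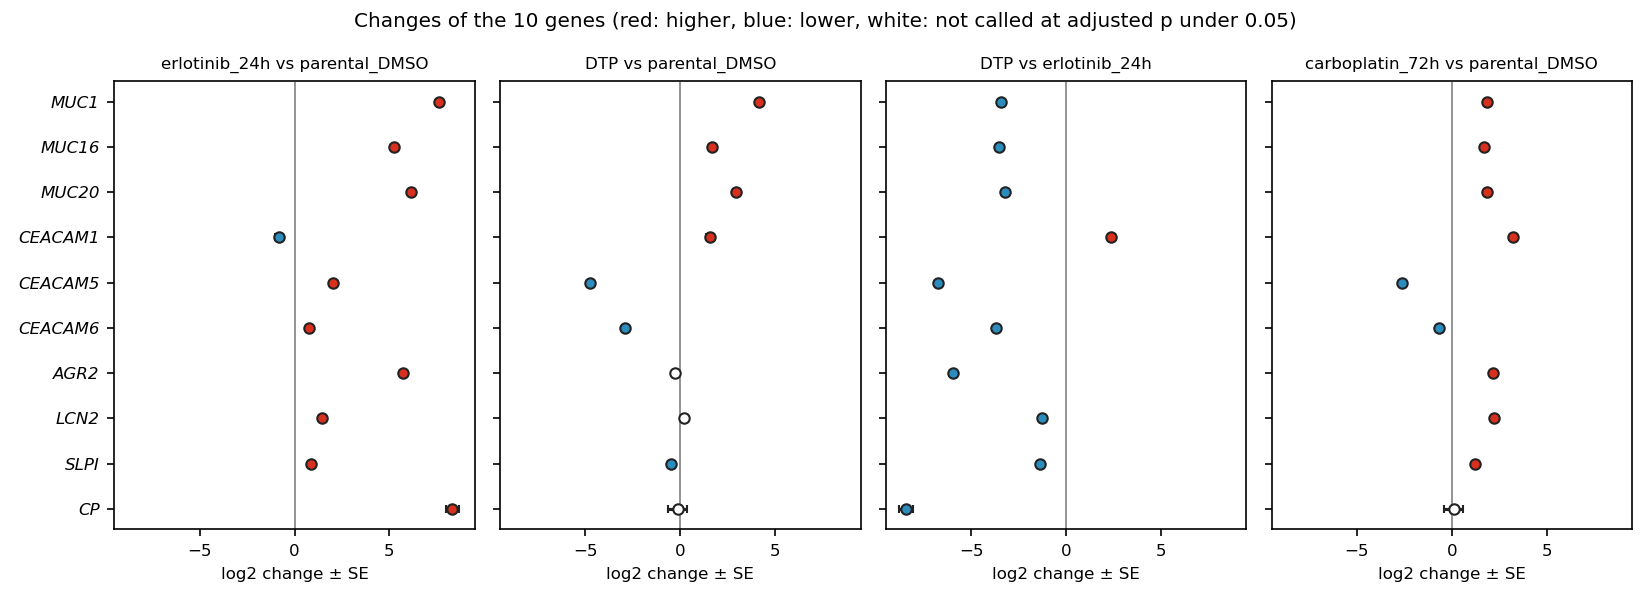
Log2 change of each gene in 4 comparisons, with the standard error as a horizontal bar that is mostly hidden by the point. Red points are called higher, blue points lower and white points neither. The 3 mucins are red at 24 hours, in DTP and after carboplatin, while CEACAM5 and CEACAM6 are red at 24 hours and blue in DTP and after carboplatin.

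TSA given for 5 hours to parental cells was followed by 4 genes called higher and 2 lower, where 30.8% of all genes were called higher and 27.4% lower. AGR2 was at 23.4, 18.5 and 14.9 CPM, above the parental_DMSO libraries, with a change of 2.18 (SE 0.12). MUC1, at 4.26, 3.53 and 3.38 CPM, rose by 1.49 (SE 0.12), and MUC20, at 11.7, 11.3 and 12.2 CPM, rose by 1.10 (SE 0.07). LCN2, at 147, 106 and 86.5 CPM, rose by 0.57 (SE 0.13), and its replicate a lay well above the other two. MUC16 was lower, with a change of -0.78 (SE 0.14), and SLPI, at 65.7, 47.3 and 40.6 CPM, with -1.13 (SE 0.12). Without replicate a of both TSA groups the same 6 calls held, with AGR2 at 2.00, MUC1 at 1.39, MUC20 at 1.11, LCN2 at 0.33, MUC16 at -0.58 and SLPI at -1.35. CEACAM1 (0.47) and CEACAM6 (0.19) were then called higher and CP (-1.21) lower. The calls of CEACAM1 (0.46) and CEACAM6 (0.18) needed only parental_TSA a to be left out, and that of CP any one of DTP_TSA a (-1.19), DTP_TSA b (-1.19) or parental_TSA c (-1.72). CEACAM5 was at 9.07, 11.7 and 12.0 CPM, overlapped parental_DMSO and was not called (0.04, SE 0.13).

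TSA given to persisters was followed by 2 genes called higher and 2 lower, where 25.6% of all genes were called higher and 30.7% lower. AGR2, at 5.79, 5.88 and 5.39 CPM against 3.45 to 3.52 CPM in DTP, rose by 0.70 (SE 0.12). CEACAM5, at 0.397, 0.636 and 0.668 CPM, had a change of 0.58 (SE 0.19) and was called higher, although replicate a lay within the DTP range. MUC1, at 14.8, 17.3 and 17.3 CPM, was lower with -0.50 (SE 0.10), and CEACAM6 with -0.17 (SE 0.06). These calls changed with the setting. With DESeq2 the CEACAM6 change was -0.12 and not called. With spike-in scaling and DTP_TSA a left out, the MUC1 change was -0.28 and that of CEACAM6 0.000342, and neither was called. With only DTP_TSA a left out, MUC1 was called at -0.43 and CEACAM6 was not at -0.15. Without both replicates a 7 of the 10 genes were called, among them AGR2 at 0.68, MUC1 at -0.43, CEACAM5 at 0.70 and CEACAM6 at -0.15. CEACAM5 lost its call without DTP a (0.49), DTP_TSA b (0.51) or DTP_TSA c (0.46), and CEACAM6 without DTP a (-0.16), DTP b (-0.17), DTP_TSA a (-0.15) or DTP_TSA c (-0.17). Lower calls were gained by MUC20 (-0.16) without DTP_TSA a, by MUC16 (-0.32) and LCN2 (-0.26) without parental_TSA a or parental_TSA c, and by SLPI (-0.15) without parental_TSA a.

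Whether TSA acted differently in the cell states was fitted as the TSA effect in DTP minus that in parental cells. It was called lower for 6 of the 10 genes and higher for 1, where 23.0% of all genes were called lower and 15.3% higher. MUC1 had the largest such difference, -1.98 (SE 0.16): TSA was followed by more MUC1 RNA in parental cells and less in DTP. The difference was -1.48 (SE 0.16) for AGR2, which rose in both, and -1.20 (SE 0.09) for MUC20, which was called higher in parental cells and was not called in DTP. SLPI had the positive difference, 0.99 (SE 0.16). MUC16, CEACAM5 and CP were not called, with 0.47 (SE 0.20), 0.54 (SE 0.23) and 1.36 (SE 0.74). The difference was -0.82 (SE 0.18) for LCN2, -0.65 (SE 0.25) for CEACAM1 and -0.28 (SE 0.09) for CEACAM6. With spike-in scaling and DTP_TSA a left out, CEACAM1 (-0.50) and CEACAM6 (-0.14) were not called, while with only that library left out they were called at -0.61 and -0.25. In most other alternatives the CEACAM1 call was lost too. Neither single TSA effect on CEACAM1 was called, at 0.33 (SE 0.18) in parental cells and -0.32 (SE 0.17) in DTP. Without both replicates a the values for MUC1, AGR2, MUC20, SLPI, LCN2, CEACAM1 and CEACAM6 were -1.82, -1.32, -1.27, 1.27, -0.53, -0.74 and -0.34, all called. CEACAM5 (0.66) and CP (1.65) were called higher without DTP_TSA a, and MUC16 (0.72) without parental_TSA c.

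**Figure D3:**
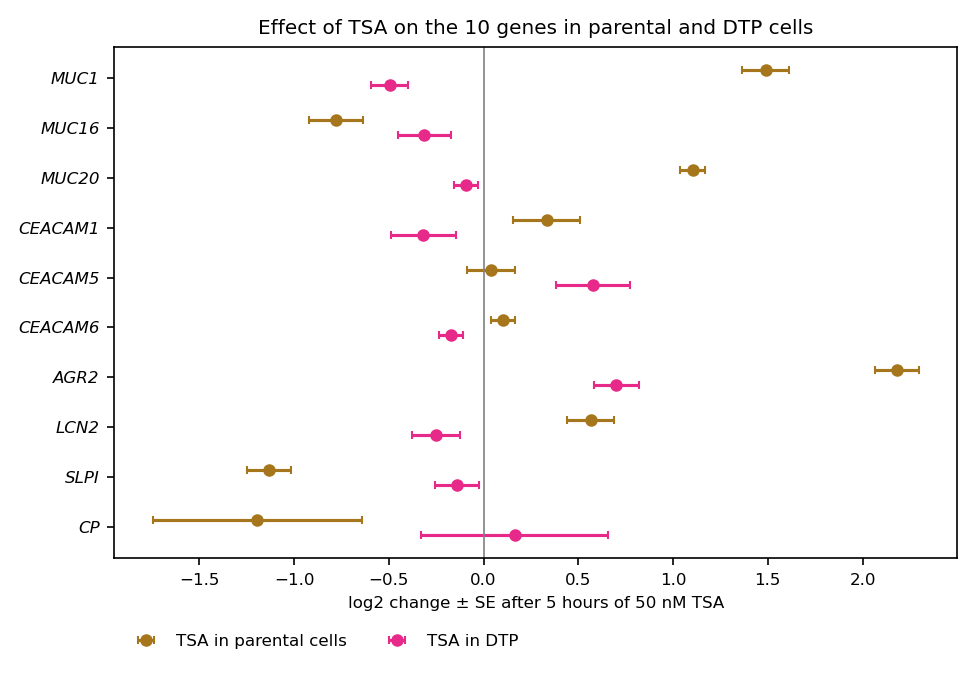
Log2 change of each gene after 5 hours of 50 nM TSA in parental cells (brown) and in DTP (pink), with bars for the standard error. The brown point lies to the right of the pink one for MUC1, MUC20, CEACAM1, CEACAM6, AGR2 and LCN2 and to its left for MUC16, CEACAM5, SLPI and CP, of which MUC16, CEACAM5 and CP were not called different.

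The patterns of the genes over the 6 group means were compared by the root mean square difference of log2(CPM + 0.5), each profile centred on its own mean. The closest pairs among the 45 were MUC1 with MUC20 (0.48), LCN2 with SLPI (0.51), MUC16 with MUC20 (0.66) and CEACAM5 with CEACAM6 (0.85). CEACAM1 was 2.90 from CEACAM5 and 2.19 from CEACAM6, and its closest member was LCN2 (1.03). Over 14204 tested genes with at least 1 CPM in a group, the gene most like MUC1 was MUC20 (0.48), followed by VTCN1 (0.50). The most alike gene was MMP12 for MUC16 (0.34), PIK3IP1 for MUC20 (0.35), ECM1 for CEACAM1 (0.23), the secreted mucin MUC5B for CEACAM5 (0.64), S100A4 for CEACAM6 (0.27), the transcription factor SOX2 for AGR2 (0.41), LOC399900 for LCN2 (0.13), LINC01348 for SLPI (0.19) and MMP13 for CP (0.55). The second were KRT16 (0.47), BMF (0.45), ISG20 (0.25), CASP14 (0.80), ADIRF (0.41), SCNN1A (0.73), SDCBP2 (0.18), LINC01269 (0.22) and ALDH3B2 (0.58) for the same 9 genes. These are descriptions over 6 group means that share libraries.

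**Figure D4:**
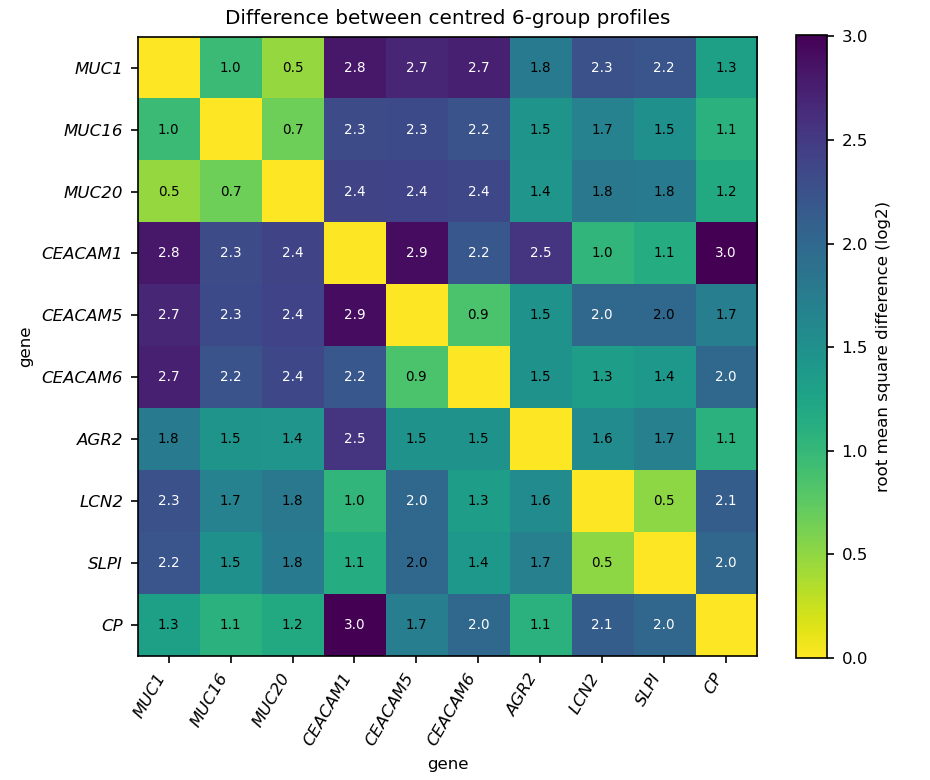
Root mean square difference, in log2 units, between the centred 6-group profiles of each pair of genes, with the value in each cell. Low values (yellow) join MUC1, MUC16 and MUC20 (0.5 to 1.0), CEACAM5 with CEACAM6 (0.9) and LCN2 with SLPI (0.5), and CEACAM1 is 2.2 to 3.0 from all mucins, the other CEACAMs, AGR2 and CP.

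The wider mucin family was taken from a list of 21 other mucins and mucin-like genes, of which 12 were tested. The shares of all genes called, against which the counts of this and the following lists are read, were 36.6% higher and 32.7% lower at 24 hours, 31.0% and 27.8% in DTP, and 30.3% and 28.6% after carboplatin. Of the mucins 8 were higher and 1 was lower at 24 hours, 4 were higher and 4 lower in DTP, and 3 were higher and 2 lower after carboplatin. Their median changes were 1.71, -0.14 and 0.27, beside 0.11, 0.06 and 0.06 over all genes. MUC6, MUC15, MUC21 and MUC22, all called higher at 24 hours, reached at most 1.13, 1.63, 0.333 and 0.333 CPM in any library. Genes with so few reads can pass the filter through the group where they are high. In this and the following lists, such calls and the medians are therefore partly set by the filter. The lists and their named genes were chosen with results of these data known, so the p-values printed for them are descriptive. MUC4, the membrane mucin that follows MUC20 in the RefSeq gene order of chromosome 3, was at 53.8 ± 4.5 CPM in parental_DMSO and 306 ± 9.2 CPM at 24 hours (SD, n = 3). Its change was 2.51 (SE 0.20, edgeR quasi-likelihood test with Benjamini-Hochberg adjusted p = 5.01e-09) at 24 hours and 1.87 (SE 0.19, edgeR adjusted p = 2.92e-07) in DTP. MUC5B, a gel-forming mucin of airway secretory cells, was at 3.16 CPM in parental_DMSO, 9.39 CPM at 24 hours and 0.105 CPM in DTP. It rose by 1.57 (SE 0.33, edgeR adjusted p = 0.000451) at 24 hours and changed by -4.91 (SE 0.45, edgeR adjusted p = 5.66e-08) in DTP, the directions of CEACAM5 and not of MUC1. PODXL, a sialomucin, was lower in both, with -1.79 (SE 0.10) at 24 hours and -1.17 (SE 0.10) in DTP. MUC15 was at 1.44 CPM at 24 hours and 0.00909 CPM in parental_DMSO. No fold is given for so few reads, though its change is counted in the medians above. MSLN, the binding partner of MUC16, was at 0.136 CPM in parental_DMSO, 2.77 CPM at 24 hours and 1.30 CPM in DTP, with changes of 4.34 (SE 0.30) and 3.25 (SE 0.30).

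Among 19 other CEACAM genes and the related pregnancy-specific glycoproteins (PSG), 9 were tested. In DTP 8 were higher, at 24 hours 5 and after carboplatin 8. Their median changes were 4.65 in DTP, 2.08 at 24 hours and 1.91 after carboplatin. The median in DTP was the change of PSG8 (SE 2.04), which was not called there. PSG8, PSG4, PSG2 and CEACAM20 reached at most 0.344, 0.843, 1.06 and 2.35 CPM in any library, so their changes rest on few reads. PSG5 was at 0.167 CPM in parental_DMSO, 2.21 CPM at 24 hours and 18.6 CPM in DTP, with a change of 6.79 (SE 0.19) in DTP. CEACAM19 was at 6.52 CPM in parental_DMSO, 17.2 CPM at 24 hours and 15.6 CPM in DTP. PSG genes are closely related to one another. How much sequence they share was not computed here, so the split of reads between them is uncertain.

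Of 30 other secretory proteins of the airway, 20 were tested. At 24 hours 14 were higher and 6 lower, in DTP 5 were higher and 10 lower, after carboplatin 12 were higher and 2 lower, and after TSA in parental cells 1 was higher and 7 lower (4 and 11 of 21 tested without replicate a of both TSA groups). After TSA in parental cells 30.8% of all genes were called higher and 27.4% lower. The median changes of the list were 1.64 at 24 hours, -0.52 in DTP and 0.92 after carboplatin. PI3 (elafin), like SLPI a whey acidic protein-type inhibitor of elastase, was at 135 CPM in parental_DMSO, 76.6 CPM at 24 hours, 28.1 CPM in DTP and 548 CPM after carboplatin. Its change was -0.81 (SE 0.15, edgeR adjusted p = 0.000141) at 24 hours, where SLPI was higher. The related WFDC2 rose by 1.53 (SE 0.19) at 24 hours and had a change of 0.19 (SE 0.18) in DTP, not called. S100P, a calcium-binding protein, was at 30.8 CPM in parental_DMSO, 98.7 CPM at 24 hours and 8.34 CPM in DTP, a difference between DTP and 24 hours of -3.56 (SE 0.18). CFB and CLU, a complement factor and a secreted chaperone, were higher in both, CFB with 4.86 (SE 0.06) at 24 hours and 3.42 (SE 0.06) in DTP. AGR3, the paralog of AGR2, was at 0 in parental_DMSO and at 0.230 CPM at 24 hours, and TFF3, a peptide secreted with mucins, was at 0 in every group mean.

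The list of 19 regulators of secretory cells and partners in the endoplasmic reticulum had 17 tested genes. At 24 hours 11 were higher and 4 lower, and in DTP 6 were higher and 8 lower, with median changes of 0.34 and -0.09. With spike-in scaling and DTP_TSA a left out the counts at 24 hours were 7 and 6 of 18 tested. ELF3, an epithelial ETS factor, was at 23.6 ± 0.85 CPM in parental_DMSO, 701 ± 11 CPM at 24 hours, 105 ± 2.8 CPM in DTP, 147 ± 2.6 CPM after carboplatin and 132 ± 6.8 CPM after TSA (SD, n = 3). Its change at 24 hours was 4.89 (SE 0.06, edgeR adjusted p = 1.22e-18). SPDEF, a factor of goblet cell differentiation, was at 2.30 CPM in parental_DMSO and 0.430 CPM in DTP, a change of -2.41 (SE 0.25), and it was not called at 24 hours (-0.49, SE 0.23). KLF5 rose by 1.56 (SE 0.04) at 24 hours, and XBP1, the factor of the unfolded protein response, fell by 1.92 (SE 0.08) on the log2 scale after TSA in DTP (fell by 1.91 without both replicates a).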

How the data were processed

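RNA-seq of 18 PC9 libraries was analysed from the deposited table of expected counts per gene, made by the authors with Salmon per the submitters' processing notes; its version, the build and the annotation were not given in the sources used here. Columns of 3 samples that match no label were not used. Entrez identifiers were given symbols from a gene name table (27814 of 30727; 0.247% of reads lay in the rest). Expected counts were rounded, genes were kept by filterByExpr, and edgeR 4.0.16 (TMM, quasi-likelihood F-test, 1 term per group, Benjamini-Hochberg within each comparison) gave changes and calls at 0.05. SE is the change divided by the square root of F. The fit was tested on simulated counts. Alternatives were DESeq2 1.42.0, its size factors, other filters, ERCC scaling, a replicate block, fewer groups and leaving out libraries. Deposited ERCC expected counts served the scaling. The members and lists were chosen with earlier results of these data known, so the p-values printed for list genes are descriptive too. If the replicates are technical, these p-values reflect technical spread only. Named list genes were, per list and comparison, up to 4 called genes of smallest p whose groups did not overlap and whose higher group averaged 1 CPM or more (examples are given), plus MSLN, TFF3, AGR3, WFDC2, PI3, SPDEF, ELF3, GCNT3, HEPH and MUC4. The 2 most alike genes per member are named. Protein identity was not analysed here, nor were the deposited repeat element tables. Upstream sequences are RefSeq's on GRCh38.p14, aligned with Biopython 1.88.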

Additional observations from a re-analysis of the deposited data

Results flagged for a closer look

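For 7 of the 10 genes the effect of TSA differed between DTP and parental cells, by the fitted difference of the effects in these groups. The log2 difference, DTP minus parental, was -1.98 for MUC1, -1.48 for AGR2, -1.20 for MUC20, -0.82 for LCN2, -0.65 for CEACAM1, -0.28 for CEACAM6 and 0.99 for SLPI. The share of all genes called in this comparison was 23.0% lower and 15.3% higher. The CEACAM1 call was lost without parental_TSA c (-0.45), without parental_TSA b (-0.70) and in most other alternatives, and that of CEACAM6 without DTP a (-0.27) or parental_TSA b (-0.24). LCN2 in parental_TSA was at 147 CPM in replicate a, the library that correlated less with its mates, and without both replicates a its difference was -0.53, that of CEACAM1 -0.74 and that of CEACAM6 -0.34.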

How the results depend on the processing

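Member changes were recomputed under 26 other settings, 1819 comparisons in all. In 1739 the call was as reported, in 42 a call was gained and in 37 a call was lost. Direction was compared only for changes called in the main fit. In 1 a called change turned sign and lost its call: CEACAM6 after TSA in DTP was 0.000342 with ERCC scaling, a setting that always also left out DTP_TSA a. The 4 calls in that comparison became 2 with that setting, stayed 4 with only DTP_TSA a left out, became 7 without both TSA replicates a, and ranged from 2 (without DTP a or without DTP_TSA c) to 7 (without parental_TSA a) when single libraries were left out. For the difference in TSA effects, 6750 genes were called, 2717 with ERCC scaling and DTP_TSA a left out, and 3166 higher and 4684 lower with only that library left out. In the other comparisons the total of both directions stayed within 1.5 times that reported. Members were called 1 higher and 6 lower for that difference, 4 and 6 with DESeq2, 1 and 4 with ERCC scaling and DTP_TSA a left out, and 3 and 6 with only that library left out. With ERCC scaling and DTP_TSA a left out, calls over all genes, higher and lower, moved from 5471 and 4911 to 5631 and 3224 in DTP (6327 and 5461 with only that library left out), from 6457 and 5776 to 4665 and 7207 at 24 hours (7227 and 6223), from 4508 and 5407 to 4446 and 2582 for TSA in DTP (5137 and 5601), and from 5382 and 4377 to 8502 and 2030 between DTP and 24 hours (6109 and 5231), where the median of all genes moved from 0.03 to 0.48. The cause was not tested. Replicate letters did not pair the libraries (correlations of deviations -0.197 to 0.293), and with the letter as a replicate block members called were 4 higher and 3 lower in DTP, 9 and 1 at 24 hours, 7 and 2 after carboplatin, 4 and 2 after TSA in parental cells and 2 and 2 in DTP, as without it. CP outside erlotinib_24h had at most 21.8 reads, which limits its changes there, and 3 libraries per group limit all others.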

Other observations

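Of 26 genes of mucin O-glycosylation, the enzymes that build the sugar coat of MUC1 and its relatives, 24 were tested. At 24 hours of erlotinib 12 were higher and 8 lower, in DTP 9 were higher and 6 lower, and after carboplatin 5 were higher and 15 lower, a split that became 6 and 5 with spike-in scaling and DTP_TSA a left out. The median changes were 0.27, 0.07 and -0.49, beside 0.11, 0.06 and 0.06 over all genes, of which 36.6%, 31.0% and 30.3% were higher and 32.7%, 27.8% and 28.6% lower. B3GNT3, a core extension enzyme, was at 182 CPM in parental_DMSO, 80.4 CPM at 24 hours and 78.6 CPM in DTP, with changes of -1.18 (SE 0.05) and -1.21 (SE 0.05). GCNT3, the mucin-type core branching enzyme, was at 0.352 CPM in parental_DMSO and rose by 1.78 (SE 0.25) at 24 hours and 2.22 (SE 0.25) in DTP. GALNT10, which starts the sugar chain, was at 256 CPM in parental_DMSO, 82.1 CPM at 24 hours and 230.0 CPM in DTP.

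Of 15 iron and copper genes that work with CP and LCN2, 12 were tested, and 8 were higher and 3 lower at 24 hours of erlotinib, while 5 were higher and 1 lower in DTP, with median changes of 1.21 and 0.75. SLC40A1 (ferroportin), the iron exporter that CP assists, was at 2.65 CPM in parental_DMSO, 21.2 CPM at 24 hours and 15.3 CPM in DTP. Its change was 3.00 (SE 0.12) at 24 hours and 2.53 (SE 0.12) in DTP, where CP was at most 0.145 CPM. FTH1, the ferritin heavy chain, was at 3486 CPM in parental_DMSO and 9358 CPM at 24 hours, a change of 1.42 (SE 0.14). HEPH, a ferroxidase related to CP, stayed under the filter with at most 0.0385 CPM as a group mean. MMP9, which forms a complex with LCN2, was at 2.71 CPM in parental_DMSO, 1.19 CPM at 24 hours and 15.2 CPM in DTP.

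Of 10 surfactant and alveolar genes, 7 were tested, of which 7 were higher at 24 hours (6 with spike-in scaling and DTP_TSA a left out, where LAMP3 had 0.37 and was not called), 5 in DTP, 3 after carboplatin and 4 after TSA in parental cells (4 also without both TSA replicates a). Their median changes were 2.88, 2.44, 1.09 and 1.69. Of all genes, 36.6%, 31.0%, 30.3% and 30.8% were called higher in these comparisons. LAMP3 was at 9.17 CPM in parental_DMSO, 15.2 CPM at 24 hours and 53.1 CPM in DTP, so it was higher in DTP than at 24 hours by 1.80 (SE 0.09). The defining genes SFTPC and SFTPB stayed at or under 0.0538 and 0.148 CPM. SLC34A2, SFTPA2, SFTPD and NAPSA, counted among the tested genes, reached at most 0.192, 0.202, 0.778 and 0.856 CPM, so their calls rest on few reads. Of 10 binding partners and sheddases, 7 were tested, with 5 higher at 24 hours, 5 higher in DTP, and 3 higher and 4 lower after carboplatin, and median changes of 1.96, 0.35 and -0.17. With spike-in scaling and DTP_TSA a left out, 8 were tested and these counts were 6, 4, and 5 higher and 1 lower. There ADAM10 (-0.24) and ADAM17 (-0.16) were not called after carboplatin, nor was ADAM10 (0.39) in DTP. MMP14, a membrane protease, was at 35.6 CPM in parental_DMSO, 146 CPM at 24 hours and 266 CPM in DTP. LGALS3, the galectin that binds mucin sugars, was at 72.8 CPM in parental_DMSO and 283 CPM at 24 hours.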
